A study of Mus musculus with 24 samples.

Results

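The microRNAs described here are those of the Sfmbt2 intron cluster and their GU-repeat relatives. They were taken as every mouse probe of the array with at least 1 name in the families miR-297, miR-466, miR-467 or miR-669 (any letter and strand), together with miR-574-5p. This rule uses names only and found 22 of the 558 mouse miRNA probes. The probes carry 34 mature names, since 5 probes list several near-identical miRNAs. Such a probe reads the sum of its targets, and signal from a close relative on a probe with 1 name cannot be told apart from its own.

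The study profiled miRNA in 3 mouse mammary carcinoma cell lines, 67NR (labelled nonmetastatic), 4TO7 (labelled systemically invasive) and 4T1 (labelled highly metastatic). Each line had been grown for 6 days in a three-dimensional organotypic culture with a compliant or a rigid microenvironment. Cultures were given TGF-beta, or else a compound that inhibits its type I receptor, a condition that the labels also call basal. No group was without both agents, so each TGF-beta difference below is relative to the inhibitor. The 12 combinations had 2 arrays each, named set 1 and set 2, on 24 arrays of 5 slides. Nothing in the labels says that the sets were separate cultures, so p-values measure only the spread between these arrays, which may be technical. Fewer cells that make a miRNA and less of it per cell cannot be told apart in such samples.

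As background, Sfmbt2 encodes a Polycomb-related protein and is an imprinted gene expressed from the paternal allele in the early embryo and the placenta. One of its introns holds a large tandem cluster of miRNA hairpins that is found in mouse and rat and belongs to the miRNAs the placenta needs. Its mature miRNAs are rich in alternating uridine and guanosine on one strand of the hairpin and in adenosine and cytidine on the other. miR-574 is a separate miRNA gene whose 5′ strand has the same GU-repeat character, and whose GU-rich strand has been described as a binder of the RNA-binding protein CUGBP1.

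In the RefSeq gene table, 72 miRNA genes lay within Sfmbt2. All matched genes of 17 of the 22 probes were among them. Another 4 probes (miR-297a, miR-466f-3p, miR-466f-5p and the probe shared by miR-297a*, miR-297b-3p and miR-297c*) had 1 further gene copy elsewhere, and Mir574 lies within Fam114a1 and Tlr6. Of the 34 names, 2 (both of miR-466a) matched no gene. The repeat that names the group is shown by miR-574-5p, the 1 name among the 34 with a mature sequence in the RefSeq table used here (build GRCm38.p6). It is followed by its partner strand miR-574-3p and by 4 relatives of the miR-466, miR-467 and miR-669 families, which have no probe on this array and are shown only for the kind of sequence that these families hold. Of these, miR-466k and miR-669n lie on chromosome 3, miR-467h on 9 and miR-466i-3p on 13, so they are not a sample of the intron cluster. Capitals mark the seed, bases 2 to 8.
miR-574-5p: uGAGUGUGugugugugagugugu
miR-574-3p: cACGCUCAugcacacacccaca
miR-466k: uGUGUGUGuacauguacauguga
miR-467h: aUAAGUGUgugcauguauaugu
miR-669n: aUUUGUGUguggaugugugu
miR-466i-3p: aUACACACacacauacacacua

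miR-574-5p lies at chr5:64970328-64970350 on the + strand. Of its 23 bases, 91.3% are G or U, and its longest run of strictly alternating G and U is 13 bases. The median longest run over the 1679 mature sequences of the table was 3, and miR-574-5p was the only 1 that reached 13. Of the 34 member names only 1 was found in the table by exact name, so the other members are not ranked by it. The word UGUGUGUG occurred in 7 of the 1679 (0.417%). No probe outside the 22 that was found by exact name had it. Probes not found by exact name could not be searched, so this does not show that other probes lack the word. The GU strands above differ in their seeds, and miR-466i-3p shows the complementary, A- and C-rich kind of strand, with 13.6% G or U.

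Levels are given as log2 of the deposited relative intensity (sample dye over a reference channel) after quantile normalization, and a probe counts as detected at a detection p under 0.05. Between 313 and 357 of the 558 probes were detected per array, and both arrays of a group correlated with r of 0.995 to 0.999 over the tested probes. The median error of the 22 probes was 5.04 to 9.29 percent of the intensity per array. Of the marker lists for other cells, neither of the 2 endothelial miRNAs was detected on any array and 5 of 7 blood miRNAs were detected in no line. The other 2 blood miRNAs, miR-451 (9.67 to 10.42) and miR-150* (7.499 to 8.055), were detected on all 8 arrays of each line. Of 7 mesenchymal miRNAs, 4, 3 and 3 were detected on all 8 arrays of 67NR, 4TO7 and 4T1. These counts were 3, 2 and 2 for 6 muscle miRNAs and 3 in each line for 7 neural and liver miRNAs. For 20 embryonic stem cell miRNAs they were 9, 7 and 8. Epithelial miRNAs had a summed normalized intensity of 825 to 869 in 67NR, 816 to 964 in 4TO7 and 1950 to 2210 in 4T1.

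Detection alone separated 67NR from the other lines. Per array, 8 to 13 of the 22 probes were detected in 67NR, 14 to 17 in 4TO7 and 15 to 18 in 4T1, so the range of 67NR did not overlap those of the other lines. Over the whole array, 313 to 325 probes were detected per array of 67NR. The range was 334 to 357 in 4T1, also without overlap, while that of 4TO7 reached 348 and overlapped 67NR. All 8 arrays of 67NR, 4TO7 and 4T1 detected 8, 14 and 15 of the 22 probes. For all 558 probes these shares were 54.5%, 56.6% and 57.9%. Detected on all 24 arrays were 8 probes: miR-466c-5p, miR-466f-3p, miR-466f-5p, miR-466g, miR-466h, miR-467b*, miR-467e and miR-574-5p. Another 3, the probe shared by miR-467a and miR-467b and those of miR-669a and miR-669b, were detected on every array of 4TO7 and 4T1 and on none of 67NR. That pattern was shown by 15 of the 558 probes of the array (2.69%).

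**Figure D1:**
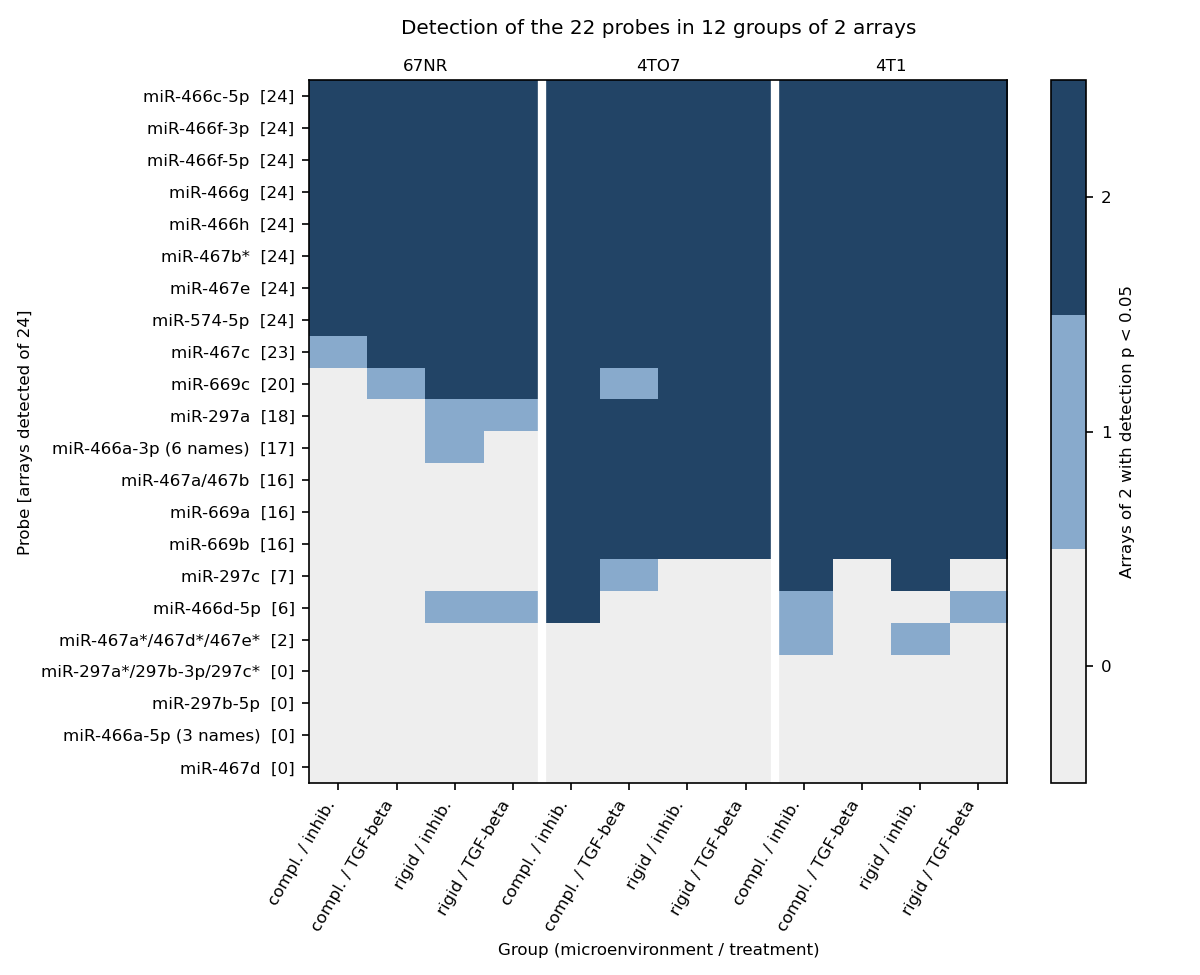
Number of arrays, of 2 per group, on which each of the 22 probes (rows, with the total of 24 arrays in brackets) was detected in each of the 12 groups (columns, by line, microenvironment and treatment). The miR-467a/miR-467b, miR-669a and miR-669b probes are dark in all groups of 4TO7 and 4T1 and empty in 67NR, and 4 probes are empty throughout.

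The remaining members fell between these patterns. miR-467c was detected on 23 arrays and miR-669c on 20, of which 5 of 8 were 67NR arrays. miR-297a was detected on 2 of 8 arrays of 67NR, both rigid, and on all 8 of each of the other lines. The probe shared by miR-466a-3p, miR-466b-3p, miR-466b-3-3p, miR-466c-3p, miR-466d-3p and miR-466e-3p, called the miR-466a-3p probe below, was detected on 1 array of 67NR and on all others. miR-297c was detected on 7 arrays, none of 67NR, and miR-466d-5p on 6, 2 in each line. Both strands of a hairpin were not always seen: the probe shared by miR-467a*, miR-467d* and miR-467e* reached detection on 2 arrays of 4T1 only, where the miR-467a/miR-467b probe was detected on all 8.

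Another 4 probes (miR-297b-5p, miR-467d, the miR-297a* probe and the probe shared by miR-466a-5p, miR-466b-5p and miR-466e-5p) were detected on no array, with lowest detection p of 0.16, 0.122, 0.17 and 0.314. They and the miR-467a* probe were not tested, which left 17 of the 22 among 365 tested probes. Of these, 7 passed the detection filter through no group of 67NR: miR-467a/miR-467b, miR-669a, miR-669b, miR-297a and the miR-466a-3p probe through the groups of 4TO7 and 4T1, miR-297c through 3 inhibitor groups of these lines, and miR-466d-5p through 1 group of 4TO7. Their differences from 67NR, with any p given, are a description and support nothing, since the filter kept them only for being higher elsewhere. For the comparisons with 67NR and for rigidity in 67NR, the 8 always detected probes are given beside the counts over the 17.

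The largest differences of the group were between the lines. Relative to 67NR, the miR-467a/miR-467b probe was higher in 4TO7 and 4T1, followed by miR-669a and miR-669b, and the other line differences were smaller. miR-467 has been described as a regulator of thrombospondin, and miR-669a as a repressor of MyoD in muscle progenitors. An adjusted p under 0.05 over all tested probes counts as a call, and errors of differences are standard errors (SE) from the same model.

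The miR-467a/miR-467b probe read 6.22 to 6.35 (median 6.29) on the 8 arrays of 67NR, 8.03 to 8.35 (median 8.13) on those of 4TO7 and 8.13 to 8.60 (median 8.34) on those of 4T1. Neither invasive line overlapped 67NR, where the detection p was 0.329 to 0.411 on every array. The mean of 67NR (6.29 ± 0.04 SD, n = 8) is therefore only a bound. The fold is given against the higher of the probe's reading and the lowest reading of any detected probe on each array. For this probe that equals the fold of the difference itself. By that measure the probe was at least 3.66-fold higher in 4TO7 (8.16 ± 0.11 SD, difference 1.87 ± 0.03 SE, adjusted p = 3.3e-17). In 4T1 it was at least 4.25-fold higher (8.38 ± 0.17 SD, difference 2.09 ± 0.03 SE, adjusted p = 3.2e-18).

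miR-669a read 6.02 to 6.54 (median 6.32) in 67NR, 7.46 to 7.69 (median 7.54) in 4TO7 and 7.57 to 7.96 (median 7.68) in 4T1. It was at least 2.40-fold higher in 4TO7 (1.26 ± 0.05 SE, adjusted p = 5.6e-13) and at least 2.69-fold higher in 4T1 (1.43 ± 0.05 SE, adjusted p = 6.5e-14), and no array of 67NR reached the lowest of the others. For miR-669b the readings were 5.79 to 6.12 in 67NR, 6.84 to 6.98 in 4TO7 and 6.85 to 7.22 in 4T1. Its difference amounted to at least 1.86-fold in 4TO7 (0.96 ± 0.04 SE) and at least 2.0-fold in 4T1 (1.07 ± 0.04 SE).

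On the slides that held 4TO7 and 67NR, the miR-467a/miR-467b probe was 1.85 to 1.90 higher in 4TO7, and on those with 4T1 and 67NR it was 1.87 to 2.31 higher in 4T1. With the slide as a block the differences were 1.92 and 2.09. Within slides, miR-669a was 1.06 to 1.51 higher in 4TO7 and 1.31 to 1.68 higher in 4T1.

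**Figure D2:**
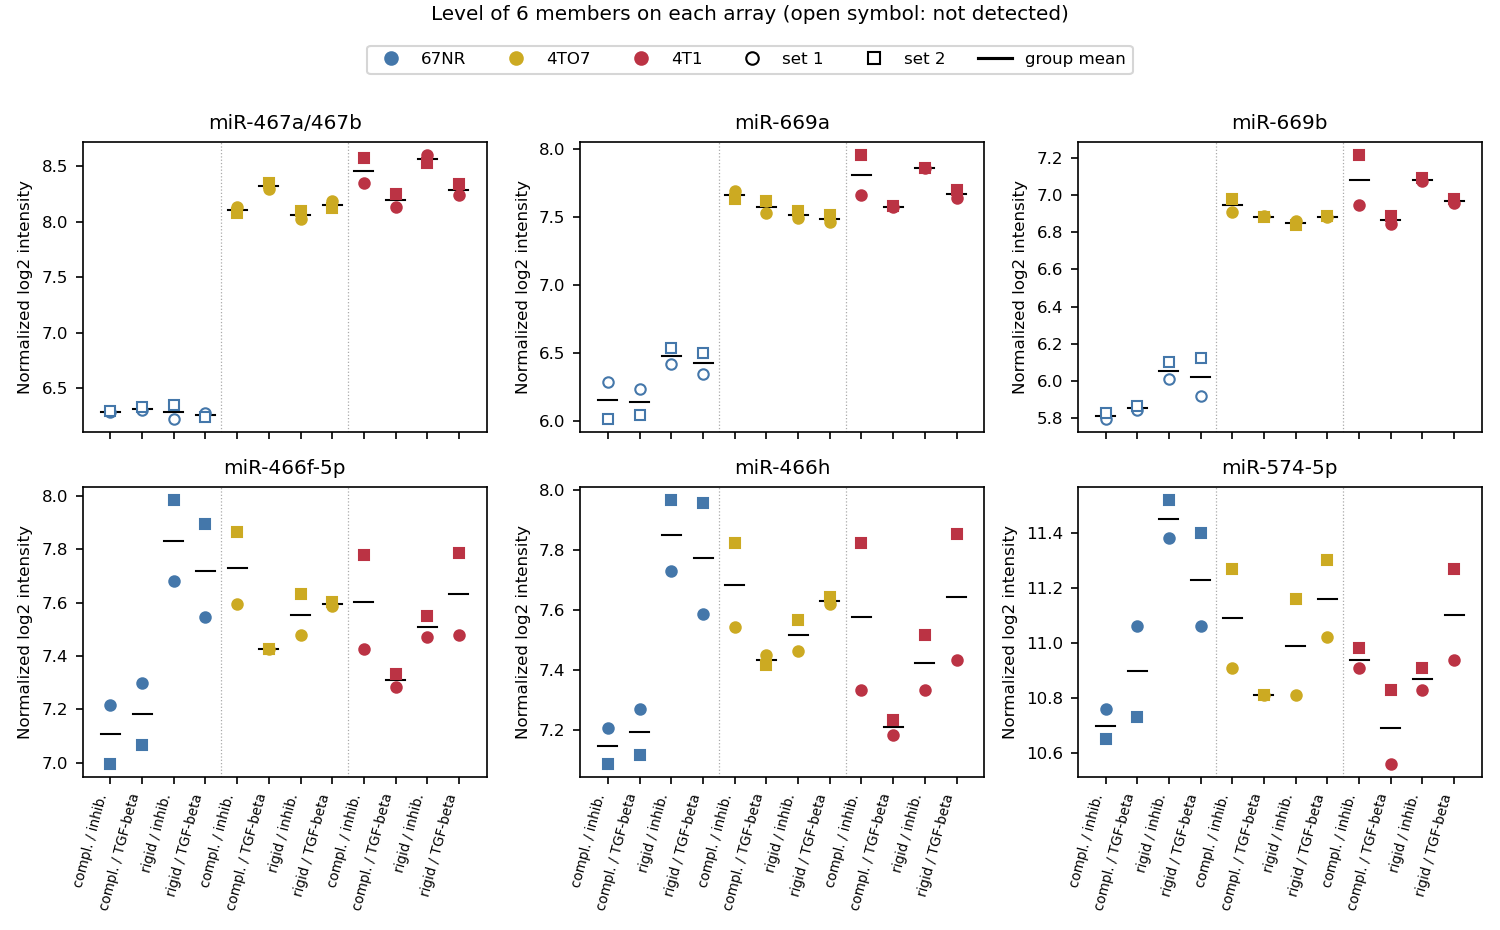
Normalized log2 intensity (y axis, a separate scale for each panel) of 6 members on each of the 24 arrays, by group (x axis). Circles are set 1, squares set 2, bars the group mean of 2 arrays, colours the lines, and open symbols arrays without detection. In the upper row the 67NR arrays lie below all others. In the lower row the rigid 67NR arrays of miR-466f-5p and miR-466h lie above the compliant ones.

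Smaller line differences ran both ways. miR-297a read 5.81 to 6.25 in 67NR against 6.49 to 6.73 in 4TO7 and 6.49 to 6.85 in 4T1, a difference of 0.63 and 0.64 (each ± 0.05 SE). The miR-466a-3p probe was higher by 0.54 in 4TO7 and by 0.35 in 4T1, and miR-467c by 0.36 and 0.28. Below 67NR were miR-466f-3p (-0.21 in 4TO7 and -0.31 in 4T1, each ± 0.08 SE), miR-466g (-0.21 and -0.31) and miR-467b* (-0.15 and -0.28). The arrays of these 3 overlapped between the lines. With the slide as a block, miR-466f-3p (-0.19, adjusted p = 0.061) and miR-467b* (-0.11, adjusted p = 0.063) lost the call between 4TO7 and 67NR, and miR-466g (-0.16, adjusted p = 0.047) kept it.

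In counts, 11 of 17 members differed between 4TO7 and 67NR, 8 higher and 3 lower, where 86.8% of all tested probes were called (29.9% higher and 57.0% lower). Between 4T1 and 67NR the count was 12 of 17, 8 higher and 4 lower, against 89.6% of all probes (30.7% higher and 58.9% lower). A call between lines was thus no more frequent among the members than over the array. Their median differences were 0.12 and 0.05, where those of all tested probes were -0.15 and -0.22. Among the 8 probes detected everywhere, 4 were called in each comparison, with 1 higher (miR-466c-5p) and 3 lower. The arrays of both lines did not overlap for 7 members between 4TO7 and 67NR (50.7% of all probes) and for 5 between 4T1 and 67NR (63.3%), all of them higher. Of the 8 higher calls in each comparison 6 had passed the filter through no group of 67NR, as had 6 of those 7 members and all 5. These counts are therefore a description. With no detection filter, 12 of 22 members were called higher and 3 lower in 4TO7 than in 67NR. In 4T1 11 of 22 were called higher and 4 lower.

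Between 4T1 and 4TO7, 6 of 17 were called, 3 in each direction, against 63.0% of all probes (23.0% higher and 40.0% lower). The 3 higher in 4T1 were again miR-467a/miR-467b (0.22 ± 0.03 SE, adjusted p = 3.4e-05), miR-669a (0.17 ± 0.05, adjusted p = 0.0064) and miR-669b (0.11 ± 0.04, adjusted p = 0.015), with overlapping arrays. With the slide as a block 3 calls were left, which were miR-467a/miR-467b (0.16, adjusted p = 0.0038), miR-669a (0.13, adjusted p = 0.039) and the miR-466a-3p probe (-0.18, adjusted p = 0.00072), while miR-669b had an adjusted p of 0.12, miR-467b* of 0.056 and miR-466c-5p of 0.11. The 3 lower calls were the miR-466a-3p probe (-0.19), miR-467b* (-0.13) and miR-466c-5p (-0.08), whose sign turned without scaling and with scaling on the spike-in probes. miR-467b* also kept its call in only 13 of 24 omissions of 1 array. By level, the order for miR-467a/miR-467b, miR-669a and miR-669b was 67NR, 4TO7, 4T1.

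miR-574-5p differed between no pair of lines. It read 10.65 to 11.52 in 67NR, 10.81 to 11.30 in 4TO7 and 10.56 to 11.27 in 4T1, and its differences were -0.06 ± 0.08 (4TO7 minus 67NR, adjusted p = 0.50), -0.17 ± 0.08 (4T1 minus 67NR, adjusted p = 0.066) and -0.11 ± 0.08 SE (4T1 minus 4TO7, adjusted p = 0.26). Against 67NR it passed as lower in 3 of 13 other settings for 4TO7 and in 6 of 13 for 4T1, where it also passed without any 1 of 4 arrays.

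The rigid microenvironment had its clearest record in 67NR, the line in which these miRNAs were least often detected. There, 11 of 17 members were called between rigid and compliant cultures, 10 higher and 1 lower, where 11.0% of all tested probes were called (6.3% higher and 4.66% lower). Of the 23 probes called higher on the whole array, 10 were members. The median over the members was 0.28, and -0.01 over all tested probes. Among the 8 members detected on all arrays 6 were called, 5 higher and 1 lower, where 9.93% of the 282 such probes were.

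miR-466h, which has been reported to act in apoptosis, read 7.21 and 7.09 in compliant 67NR with inhibitor and 7.27 and 7.12 with TGF-beta, set 1 first. In rigid 67NR it read 7.73 and 7.97 with inhibitor and 7.59 and 7.96 with TGF-beta. All 4 rigid arrays lay above all 4 compliant ones, a 1.56-fold rise (0.64 ± 0.11 SE, adjusted p = 0.0016).

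miR-466f-5p followed the same course. It read 7.22, 6.995, 7.30 and 7.07 on the compliant arrays and 7.68, 7.99, 7.54 and 7.90 on the rigid ones, without overlap and 1.55-fold higher (0.63 ± 0.10 SE, adjusted p = 0.00096). Its partner strand miR-466f-3p rose 1.29-fold (0.37 ± 0.11 SE, adjusted p = 0.036) from 11.34, 11.27, 11.58 and 11.40 to 11.72, 12.01, 11.52 and 11.83, with 1 rigid array below the highest compliant one. This last call was lost without any 1 of 5 of the 67NR arrays (adjusted p of 0.019 to 0.18 over all 24 omissions).

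miR-574-5p rose 1.45-fold with rigidity in 67NR (0.54 ± 0.12 SE, adjusted p = 0.0069). Its compliant arrays read 10.76, 10.65, 11.06 and 10.73 and its rigid arrays 11.38, 11.52, 11.06 and 11.40, so that the arrays just met at 11.06. The partner strand miR-574-3p had a difference of 0.36 ± 0.18 SE that did not pass (adjusted p = 0.25).

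Of the 17 members, miR-466c-5p had the smallest adjusted p, with 7.77, 7.83, 7.97 and 7.89 on compliant and 8.11, 8.17, 8.05 and 8.11 on rigid arrays (0.25 ± 0.04 SE, adjusted p = 0.00036). miR-297a, miR-466d-5p and the miR-466a-3p probe were below detection on all 4 compliant arrays and detected on 2, 2 and 1 of the 4 rigid ones. Their differences were 0.31, 0.29 and 0.28 (adjusted p of 0.0066, 0.0041 and 0.00096). Rigid arrays without detection enter these means, so no fold is given.

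miR-669a (6.15 to 6.45) and miR-669b (5.83 to 6.04) were also called as higher, but both means are readings below background in either microenvironment, so no fold is given. The only fall was that of miR-467e, from 7.54, 7.57, 7.58 and 7.499 to 7.27, 7.38, 7.32 and 7.35 (-0.22 ± 0.04 SE, adjusted p = 0.0012), without overlap. In all, the arrays of 10 of the 17 members did not overlap, 9 higher and 1 lower on rigid, which was the case for 9.32% of all tested probes. The miR-467a/miR-467b probe, below background on all 8 arrays, had a difference of -0.03 ± 0.05 SE (adjusted p = 0.75).

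**Figure D3:**
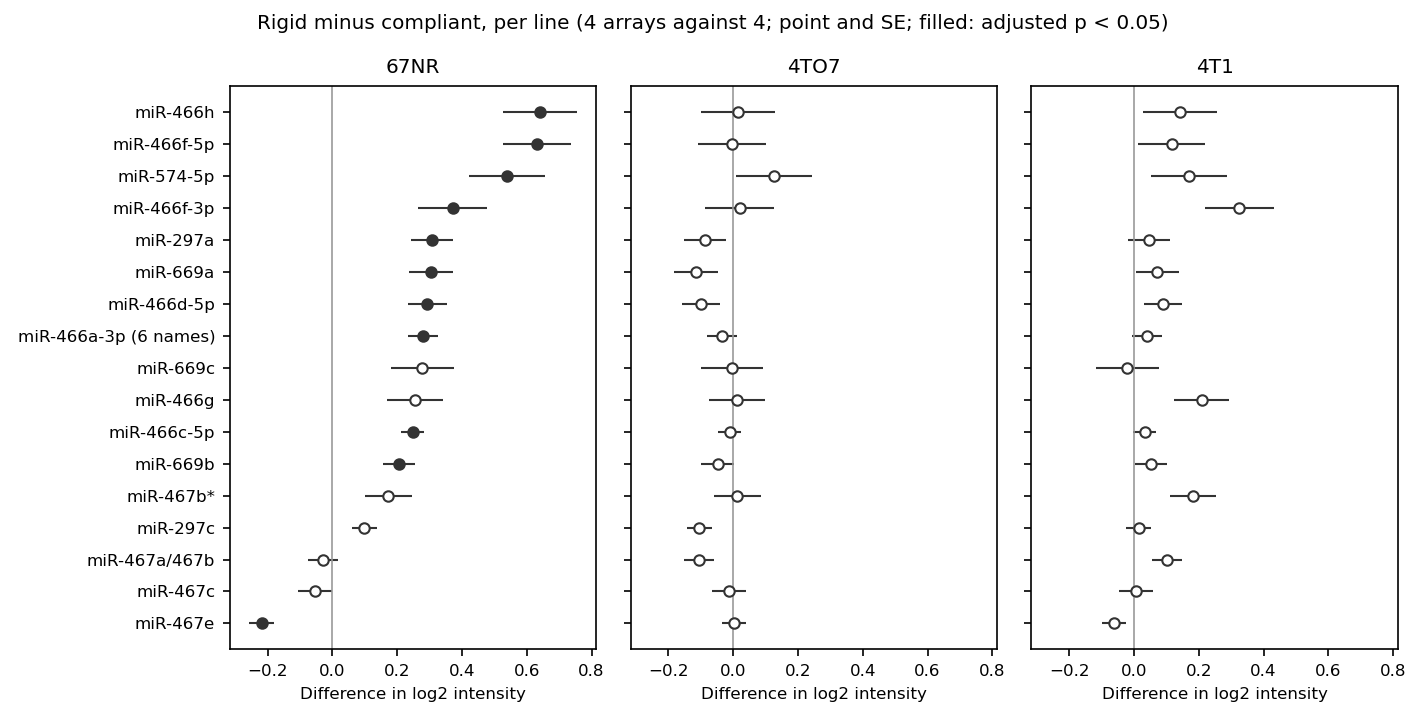
Difference in log2 intensity between rigid and compliant cultures (x axis, rigid minus compliant) for the 17 tested members (y axis) in each line. Points are model estimates from 4 arrays against 4, bars are 1 SE, and filled points have an adjusted p under 0.05. In 67NR 10 members lie to the right of 0 as calls and miR-467e to the left, and no point is filled in 4TO7 or 4T1.

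The size of the rise differed between the sets. For miR-466h the difference was 0.42 in set 1 and 0.86 in set 2, for miR-466f-5p 0.35 and 0.91, and for miR-574-5p 0.31 and 0.77. No slide held a rigid and a compliant 67NR array of the same treatment. On slides 3 and 5, where treatments were crossed, rigid minus compliant was 0.85 and 0.50 for miR-466h, 0.92 and 0.55 for miR-466f-5p and 0.78 and 0.41 for miR-574-5p. With the slide as a block 12 of 17 were called, and miR-466h stood at 0.72 (adjusted p = 0.0019). With scaling on the spike-in probes 3 of 17 passed the threshold, all higher.

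Markers of other cells were also compared between the microenvironments of 67NR. Summed intensities on compliant and rigid arrays were 899 to 965 and 836 to 850 for 6 muscle miRNAs, 826 to 869 and 825 to 854 for 10 epithelial miRNAs, and 12100 to 14400 and 14400 throughout for 7 mesenchymal miRNAs. Muscle markers were thus lower on rigid arrays without overlap, and 3 of the 6 were detected on no array of either microenvironment. The summed level of 20 embryonic stem cell miRNAs was also lower without overlap, at 3730 to 3850 on compliant and 3530 to 3720 on rigid arrays, with 11 of the 20 detected on none. The part of these lists in the result was not tested.

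In the invasive lines no member was called with rigidity by limma. In 4TO7 the count was 0 of 17 (2 at an unadjusted p under 0.05), where 2.74% of all probes were called (0.822% higher and 1.92% lower), and in 4T1 0 of 17 (4 unadjusted), where 7.4% were (3.56% higher and 3.84% lower). Arrays without overlap were found for 0 of 17 in either line, against 3.56% of all probes in 4TO7 and 3.84% in 4T1. miR-466f-3p came closest in 4T1, with 0.32 ± 0.11 SE (adjusted p = 0.073), and passed in 3 of 13 other settings. Without 1 array of 4T1 (compliant with inhibitor in set 2, or rigid with TGF-beta in set 1), 1 member passed. In 4TO7, miR-297c (-0.10) and miR-467a/miR-467b (-0.11) had the smallest p. miR-574-5p had 0.13 ± 0.12 SE in 4TO7 (adjusted p = 0.69) and 0.17 ± 0.12 SE in 4T1 (adjusted p = 0.45).

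An F test of the rigidity effect between lines called 8 of 17 members, where 8.22% of all tested probes were called. All 8 were also among the 11 called in 67NR. Among the 8 always detected members 4 were called, where 7.09% of the 282 such probes were. The other calls were miR-669a, miR-297a, miR-466d-5p and the miR-466a-3p probe, detected on 0, 2, 2 and 1 of the 8 arrays of 67NR. They had passed the filter through no group of 67NR, so their calls are a description. For miR-466h the effect in 67NR exceeded that in 4TO7 by 0.63 ± 0.16 and that in 4T1 by 0.50 ± 0.16 SE (adjusted p = 0.045). For miR-466f-5p these excesses were 0.64 and 0.52 (each ± 0.15 SE, adjusted p = 0.027), and for miR-466c-5p 0.26 and 0.21 (each ± 0.05 SE, adjusted p = 0.0082).

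miR-574-5p did not pass that test, with excesses of 0.41 and 0.37 (each ± 0.17 SE, adjusted p = 0.26), so its rise was not shown to differ between lines. The count of 8 fell to between 2 and 5 without any 1 of 10 arrays, 6 of 67NR and 4 of 4TO7, and to 2 with scaling on the spike-in probes. Averaged over the lines, rigidity had 9 of 17 calls, 8 higher and 1 lower, against 21.9% of all probes (10.7% higher), led by miR-574-5p (0.28 ± 0.07 SE), miR-466h (0.26 ± 0.07), miR-466f-5p (0.25 ± 0.06) and miR-466f-3p (0.24 ± 0.06). With the slide as a block 3 passed (miR-466f-5p, miR-466h and miR-467e), and miR-574-5p had an adjusted p of 0.052 and miR-466f-3p of 0.056 by limma. With scaling on the spike-in probes 0 of 17 passed.

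TGF-beta gave its largest member differences in 4T1, and all calls there were lower than with the inhibitor. TGF-beta signals through its type I receptor kinase, which the inhibitor blocks, to Smad transcription factors. In 4T1, 10 of 17 members were lower and 0 higher, where 31.8% of all tested probes were called (12.6% higher and 19.2% lower). The median of the members was -0.15 and that of all probes 0.02. All 17 differences were negative with quantile normalization, but without scaling and with scaling on the spike-in probes no member was called and the medians were -0.01 and 0.09. Arrays of the same group could differ by more. Set 1 minus set 2 had a member median of -0.255 in compliant 4T1 with inhibitor, with 0 of 17 higher in set 1. It was -0.14 in rigid 4T1 with TGF-beta, -0.01 in compliant 4T1 with TGF-beta and 0.01 in rigid 4T1 with inhibitor.

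miR-467b* read 7.01 and 7.26 (compliant) and 7.29 and 7.18 (rigid) with the inhibitor, and 6.70 and 6.70 (compliant) and 6.92 and 7.01 (rigid) with TGF-beta. The readings of 2 arrays, at 7.01, met, and the difference was -0.35 ± 0.07 SE (adjusted p = 0.0014). The miR-467a/miR-467b probe read 8.35, 8.57, 8.60 and 8.53 with the inhibitor and 8.13, 8.25, 8.24 and 8.34 with TGF-beta, in the same order of groups, without overlap and with a difference of -0.27 ± 0.05 SE (adjusted p = 0.00027). The 2 probes read opposite strands of the miR-467b hairpin.

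The miR-466a-3p probe fell from 7.57, 7.64, 7.53 and 7.63 to 7.32, 7.28, 7.38 and 7.42, also without overlap (-0.24 ± 0.05 SE, adjusted p = 0.00076). miR-466g (-0.30 ± 0.09 SE, adjusted p = 0.013), miR-669a (-0.21), miR-669b (-0.16), miR-467c (-0.15), miR-467e (-0.14) and miR-466c-5p (-0.10) were the other calls with both sides detected. miR-297c was detected on all 4 inhibitor arrays and on none of the 4 with TGF-beta, at least 1.13-fold lower (6.46 to 6.28, adjusted p = 0.0019). It passed the filter only through inhibitor groups, so its TGF-beta differences here and over all lines are a description. Members that rose with rigidity in 67NR were not all among these: miR-466f-5p (-0.09 ± 0.10), miR-466h (-0.08 ± 0.11) and miR-574-5p (-0.01 ± 0.12 SE, adjusted p = 0.98) did not pass.

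**Figure D4:**
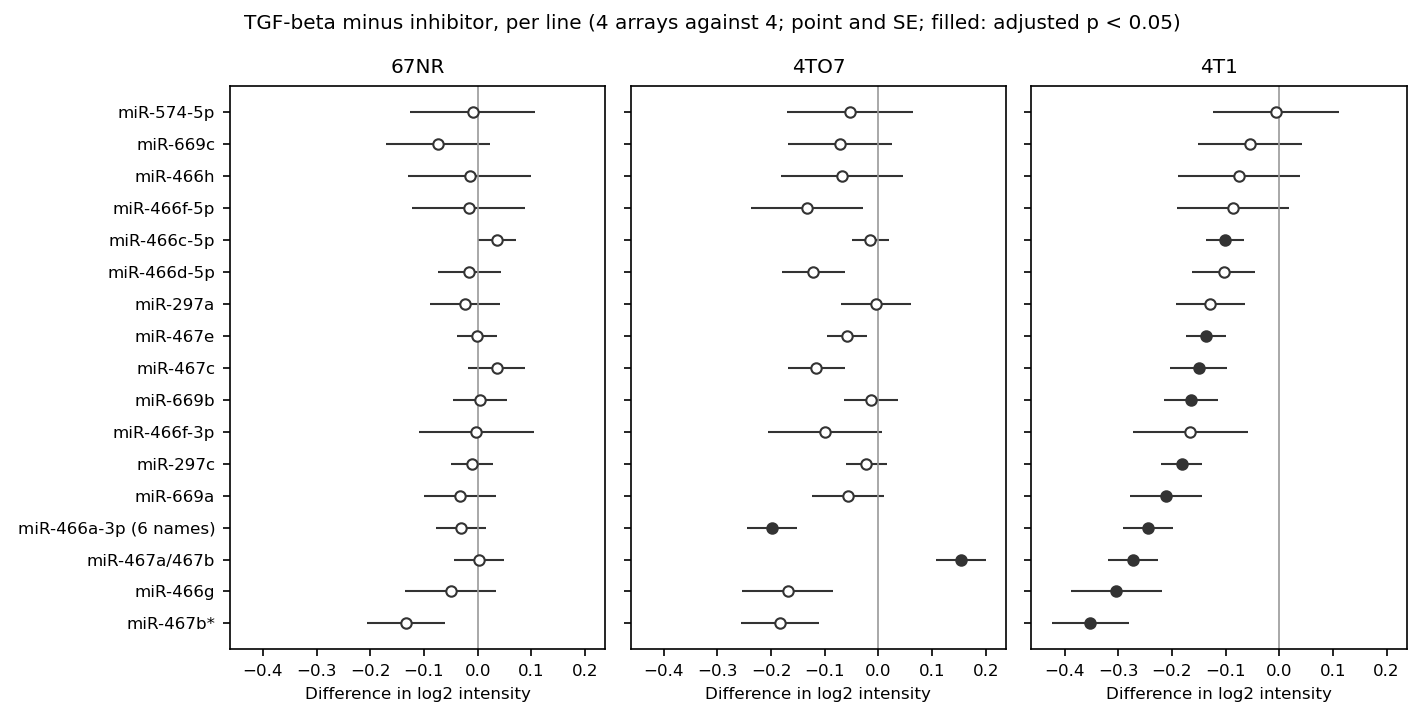
Difference in log2 intensity between TGF-beta and the receptor inhibitor (x axis, TGF-beta minus inhibitor) for the 17 tested members (y axis) in each line. Points are model estimates from 4 arrays against 4, bars are 1 SE, and filled points have an adjusted p under 0.05. All 10 filled points of 4T1 lie left of 0, which holds for quantile normalization and not for scaling on the spike-in probes, while 4TO7 has 1 filled point on each side and 67NR none.

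The count of 10 dropped to 5 without the compliant inhibitor array of set 2 or the rigid TGF-beta array of set 1, and to 6 without the compliant TGF-beta array of set 2. It was 7 with the slide as a block. No slide held a pair of 4T1 arrays that differed in treatment alone. Slide 3 held 3 of the 4T1 arrays, all with TGF-beta, and no 4T1 array with the inhibitor. Most of the treatment contrast in 4T1 thus cannot be told apart from that slide. On 1 slide a rigid TGF-beta array lay beside a compliant inhibitor array, and between them miR-467b* differed by -0.26, miR-467a/miR-467b by -0.23, the miR-466a-3p probe by -0.22 and miR-574-5p by 0.29, with both factors changed. Summed epithelial markers were 1950 to 2150 on the inhibitor arrays and, without overlap, 2190 to 2210 on the TGF-beta arrays of 4T1. The embryonic stem cell list was also higher with TGF-beta without overlap, at 3010 to 3110 against 3140 to 3550, and the part of both lists in the result was not tested. The arrays of 4 of the 17 members did not overlap, which was so for 21.1% of all tested probes.

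In 4TO7, 2 of 17 members were called, where 21.4% of all probes were (9.59% higher and 11.8% lower). The miR-466a-3p probe was lower (-0.20 ± 0.05 SE, adjusted p = 0.0046), and the miR-467a/miR-467b probe was higher (0.15 ± 0.05 SE, adjusted p = 0.026). For the latter the readings were 8.13, 8.07, 8.03 and 8.10 with the inhibitor and 8.29, 8.35, 8.18 and 8.12 with TGF-beta. The second of these calls was lost without any 1 of 4 of the arrays of 4TO7 (adjusted p up to 0.096), and the first turned to 0.06 with scaling on the spike-in probes. In 67NR 0 of 17 were called by limma (0 at an unadjusted p under 0.05), against 11.0% of all probes (3.29% higher and 7.67% lower), with miR-467b* (-0.13 ± 0.07 SE, adjusted p = 0.24) nearest to the threshold.

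The miR-467a/miR-467b probe was the only member whose TGF-beta effect differed between lines (1 of 17, adjusted p = 0.0007, where 14.5% of all probes were called). Its effect was -0.27 in 4T1, 0.15 in 4TO7 and 0.00 in 67NR, and the gap between 4T1 and 4TO7 was -0.43 ± 0.07 SE. In 67NR, however, its readings were at background. This call was lost without scaling and with scaling on the spike-in probes (adjusted p up to 0.26).

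Averaged over the lines, 5 of 17 were called with TGF-beta, all lower, against 39.5% of all probes (18.1% lower): miR-467b* (-0.22 ± 0.04 SE), miR-466g (-0.17 ± 0.05), the miR-466a-3p probe (-0.16 ± 0.03), miR-297c (-0.07 ± 0.02) and miR-467e (-0.07 ± 0.02). The count rose to 9 without the compliant inhibitor array of 4T1 in set 1 and to 8 without the rigid TGF-beta array of 67NR in set 2. It was 0 without scaling and with scaling on the spike-in probes. With the slide as a block it was again 5, but miR-297c (adjusted p = 0.062) and miR-467e (adjusted p = 0.051) were replaced by miR-669a (adjusted p = 0.0099) and miR-669b (adjusted p = 0.041). No member had arrays without overlap (0 of 17, against 1.37% of all probes). miR-574-5p had a difference of -0.02 ± 0.07 SE (adjusted p = 0.79). The effect of TGF-beta differed between microenvironments for 0 of 17 members (0 at an unadjusted p under 0.05), where 0.0% of the 365 probes were called by limma and 22 had an unadjusted p under 0.05.

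Members also varied together within groups. After the group means were taken off, the median Pearson r between the 17 members over the 24 arrays was 0.57, against -0.00 over all tested probes, and 0.66 among the 8 members detected everywhere. These are descriptions over arrays that share slides, dyes and scaling. miR-466f-5p and miR-466h had r = 0.96, both strands of miR-466f 0.89, miR-466f-3p and miR-574-5p 0.80, and both strands of miR-574 0.41. miR-467e stood apart, with a median r of 0.10 to the other members.

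The spread within groups was also larger than usual. The median SD of the members between the arrays of a group was 0.10, and that of all tested probes 0.08. It was highest for miR-574-5p (0.18), miR-466h (0.18), miR-466f-3p (0.17) and miR-466f-5p (0.16), the 4 members with the largest rigid minus compliant differences in 67NR. An F test of the slide called 0 of 17 members (4 at an unadjusted p under 0.05) and 0.0% of the 365 probes by limma (13 unadjusted). How far this shared variation enters the differences above was not tested.

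**Figure D5:**
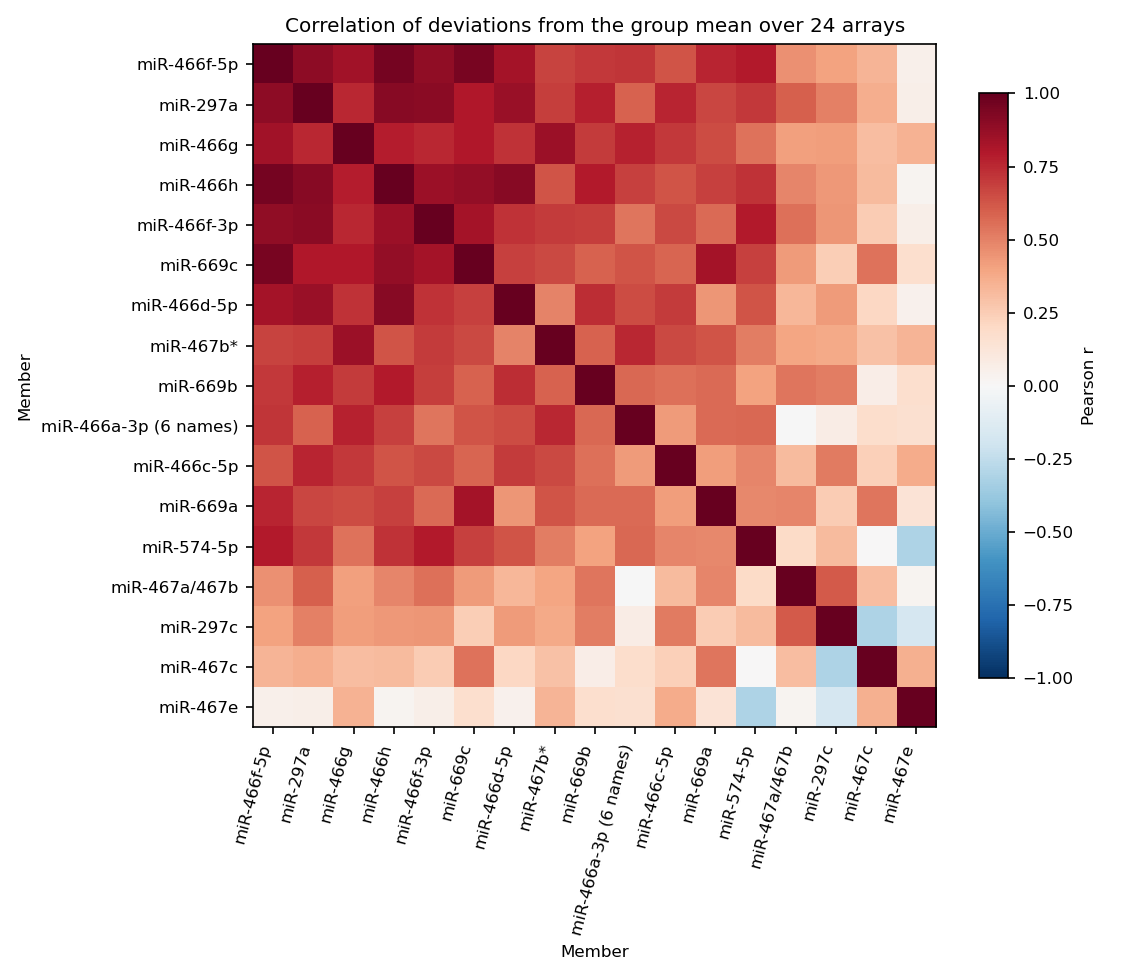
Pearson r between the deviations of the 17 tested members from their group means over 24 arrays, as colours from -1 (blue) to 1 (red), with members ordered by their median r. miR-466f-5p, miR-297a, miR-466g, miR-466h and miR-466f-3p form the dark corner, and miR-467e in the last row is pale against most others.

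Other miRNA groups serve as a measure of how general these patterns were. Of 38 tested probes of the imprinted Dlk1-Dio3 cluster, 0 were higher and 35 lower in 4TO7 than in 67NR, and 0 higher and 31 lower in 4T1. The members had 8 higher in each, but 6 of these 8 had passed the filter through no group of 67NR, so the contrast is a description. Among the 8 always detected members, 1 was higher and 3 lower in each. With rigidity in 67NR, 2 of these 38 were higher and 0 lower (median 0.02). In the embryonic stem cell clusters (miR-290 to miR-295 and miR-302) 0 of 9 were higher and 1 lower with rigidity, and in the miR-200 family, which marks epithelial cells, 0 of 7 changed. With TGF-beta in 4T1, 5 of the 38 were higher and 1 lower, and 4 of the 9 were higher and 1 lower.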

How the data were processed

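Per the labels, RNA was labelled with DY649 for a Dharmacon miRNA platform. Per the file headers, the deposited intensity is the sample signal over the DY547 channel, after background subtraction and labelling correction by the authors. The deposited files also give an error, a fail code and a p-value for presence. The authors' deposited value table holds the log2 intensities shifted by a constant per array (by an unstated rule), and served as an alternative. Scanner and software versions are not given in the sources used here.

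The log2 intensities of the 558 mouse miRNA probes were quantile normalized in R 4.3.3 with limma 3.58.1. A probe was tested if some group had it detected on each of its arrays and under 12 arrays flagged it as failed. This left 365. A model of 12 group means (lmFit, eBayes with trend, 12 residual degrees of freedom, median residual SD 0.0764) gave two-sided p-values, adjusted by Benjamini and Hochberg over all tested probes of each comparison. The fitting was tested on simulated data. The number of arrays limits the precision.

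The members and lists were chosen with earlier results of these data known. Named per comparison were the 8 called members with the largest difference and the same direction in both sets (where none passed, the 2 with the smallest p; in F tests, up to 6), always miR-574-5p, and the always or partly detected members; others named, such as further called members and miR-574-3p, complete the counts or the lists. Replicate numbers were not used as pairs. Names and neighbouring genes came from the RefSeq tables (GRCm38.p6), and the array files name no genome build.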

Additional observations from a re-analysis of the deposited data

Results flagged for a closer look

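Effects that differed between the lines by limma's F test are listed here with their adjusted p. For TGF-beta against inhibitor this was the miR-467a/miR-467b probe (adjusted p = 0.0007), which was lower in 4T1 and higher in 4TO7. For rigid against compliant it was miR-466c-5p (adjusted p = 0.0082), the miR-466a-3p probe (0.015), miR-466d-5p (0.023), miR-466f-5p (0.027), miR-669a (0.03), miR-297a (0.031), miR-467e (0.031) and miR-466h (0.045), each with its largest effect in 67NR. Of the 6 with the smallest adjusted p, miR-466c-5p and the miR-466a-3p probe passed whichever single array was left out. In 67NR, miR-669a, miR-297a, miR-466d-5p and the miR-466a-3p probe were detected on only 0, 2, 2 and 1 of 8 arrays.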

How the results depend on the processing

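Over 79 pairs of a named member and a comparison, 13 other settings and 24 omissions of 1 array were run. Of 968 values under other settings 850 kept direction and side of the threshold, 90 lost the call, 13 gained it and 15 turned sign, and of 1896 omissions 1785, 106, 5 and 0 did. A few omissions counted as kept did not pass the threshold. Passing omissions were 18 of 24 for miR-467e (TGF-beta over all lines) and 11 of 24 for miR-466g (rigidity over all lines). They were 14 of 24 for miR-467c (TGF-beta in 4T1) and 13 of 24 for miR-467b* (4T1 minus 4TO7). Scalings moved the median of all probes by over 0.1 in 16 cases, up to 0.27 (4T1 minus 4TO7, spike-in probes).

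Member counts by setting were as follows, where not within 1.5 times the reported count; the cause was not tested, except that the filter to probes detected on all 24 arrays left only 8 members. TGF-beta over all lines (5) gave 9 with median scaling over all probes, 3 with it over detected probes, 3 in the authors' table, 8 with no detection filter and 3 with always detected probes. In 4TO7 (2) it gave 1 with median scaling over detected probes and 0 with always detected probes, and in 4T1 (10) 5, 4 and 4 for median scaling over detected probes, the authors' table and always detected probes. Without scaling or with spike-in scaling each of these 3 counts was 0. Rigidity over all lines (9) gave 4 without scaling, 0 with spike-in scaling and 3 with the slide block. In 67NR (11) it gave 3 with spike-in scaling and 6 with always detected probes, and in 4T1 (0) 1 with both median scalings and the authors' table. With always detected probes 4TO7 minus 67NR (11) and 4T1 minus 67NR (12) each gave 4. 4T1 minus 4TO7 (6) gave 10 with both median scalings, 3 with spike-in scaling, 2 with always detected probes and 3 with the slide block. It gave 2 with the replicate block, which between lines compares set 1 levels only. The TGF-beta effect between lines (1) gave 2 with both median scalings, the authors' table, no detection filter, the slide block and the replicate block, and 0 without scaling, with spike-in scaling and with always detected probes. The rigidity effect between lines (8) gave 2 with spike-in scaling and 3 with always detected probes.

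Leaving out 1 array gave these ranges: TGF-beta over all lines 4 to 9, in 67NR 0, in 4TO7 1 to 3 and in 4T1 5 to 12; rigidity 7 to 13, 9 to 12, 0, and 0 to 1; 4TO7 minus 67NR 11 to 12, 4T1 minus 67NR 11 to 13, 4T1 minus 4TO7 5 to 8; the effects between lines 1 to 4 (TGF-beta) and 2 to 11 (rigidity); the effect between microenvironments and the slide effect 0.

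Signs turned with spike-in scaling for TGF-beta over all lines in miR-297c (0.0392) and miR-467e (0.0553, and 0.00077 without scaling), in 4TO7 for the miR-466a-3p probe (0.0615), and in 4T1 for miR-669a (0.0454), miR-297c (0.0515), miR-669b (0.0891) and miR-467c (0.101, and 0.00689 without scaling). For 4T1 minus 4TO7 they turned without scaling and with spike-in scaling in the miR-466a-3p probe (0.00678 and 0.0827), miR-467b* (0.0841 and 0.16) and miR-466c-5p (0.118 and 0.194).

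The labels do not say what a set number marks. Within a line, deviations of same-numbered arrays correlated over 0.1 in 11 of 18 pairs of groups (-0.16 to 0.49, median 0.25). Between lines this held for 21 of 48 pairs (-0.33 to 0.33, median 0.065). Same-numbered arrays were thus more alike within a line, but the main model did not treat the arrays as paired. The replicate block changed no count by over 1.5 times beyond those above, but left 0 of the 3 lower calls of 4TO7 minus 67NR, with 9 calls in all. The slide as a random block had a correlation of -0.0115.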
